A study of Mus musculus with 12 samples.

Results

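Adenylyl cyclases are the membrane enzymes that turn ATP into cyclic AMP (cAMP), and 8 of their genes, Adcy1, Adcy2, Adcy3, Adcy5, Adcy6, Adcy7, Adcy8 and Adcy9, were followed in the mouse prefrontal cortex after repeated cocaine. They were chosen by name, as the loci whose gene column gives one of these symbols, and all 8 were found in each of the 3 deposited tables, with 39666 gene names (2 h), 39716 (24 h) and 39647 (7 d). The animals were male C57BL/6 mice (C57BL/6 J in the methods) aged 10 weeks, given 14 daily intraperitoneal injections of saline or of cocaine at 20 mg/kg, and prefrontal tissue was taken at 2 h, 24 h or 7 d of withdrawal. Each of the 6 groups gave 2 libraries, each made from 5 mice, so the libraries represent pooled animals and not single ones. The authors deposited 1 pooled FPKM (fragments mapped to a transcript, scaled for its length and for sequencing depth) per group and locus. With the replicates merged there is no spread between replicates and no test, the tables give no read counts from which the depth behind a value could be read, and every difference is given below as a description. In bulk tissue, fewer cells of a type and less RNA per cell cannot be told apart.

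Hormone and transmitter receptors act on these enzymes through G proteins: the Gs family stimulates them and the Gi family inhibits several of them. The cAMP they make activates protein kinase A (PKA) and the Epac exchange factors, and PKA phosphorylates the transcription factor CREB. The isoforms differ in what else controls them. Adcy1, Adcy3 and Adcy8 encode enzymes stimulated by calcium and calmodulin, Adcy2 and Adcy7 encode enzymes that G protein beta-gamma subunits stimulate together with Gs, Adcy5 and Adcy6 encode enzymes inhibited by calcium, and the enzyme of Adcy9 responds poorly to the drug forskolin. In dopamine signaling, D1-type receptors raise and D2-type receptors lower cAMP, and Adcy5 is known as the main isoform of the striatum.

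Ratios are cocaine over saline on the log2 scale, after adding 0.1 FPKM to both values. A gene was counted as higher or lower when the groups differed at least 1.2-fold and the mean of the groups was at least 1 FPKM. By this rule 3 genes stood out: Adcy9 at 2 h, and Adcy1 and Adcy5 at 7 d, all higher in cocaine. The value of Adcy9 depended on which of its 2 loci was read, and those of Adcy1 and Adcy5 fell within the limit once a trend over transcript length was subtracted. The promoters of these 3 genes are shown because they are the ones past the fold. Each is the RefSeq window on GRCm38.p6 from 250 bases before to 50 after a transcription start, 5′ to 3′ on the strand of the gene (chr16:4420449-4420748, minus strand; chr11:7063183-7063482, plus strand; chr16:35154614-35154913, plus strand). The Adcy9 window lies at the end of its 7 d locus, at 4420503, but inside the locus read at 2 h, which reaches 4453392. Capitals mark TGACG, the core of the cAMP response element that CREB binds.
Adcy9: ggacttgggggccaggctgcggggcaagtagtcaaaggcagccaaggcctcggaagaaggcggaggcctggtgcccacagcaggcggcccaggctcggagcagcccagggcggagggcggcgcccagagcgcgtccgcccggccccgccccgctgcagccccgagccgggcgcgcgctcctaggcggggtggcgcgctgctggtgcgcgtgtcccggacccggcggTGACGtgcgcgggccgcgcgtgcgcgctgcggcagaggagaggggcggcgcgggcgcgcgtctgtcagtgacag
Adcy1: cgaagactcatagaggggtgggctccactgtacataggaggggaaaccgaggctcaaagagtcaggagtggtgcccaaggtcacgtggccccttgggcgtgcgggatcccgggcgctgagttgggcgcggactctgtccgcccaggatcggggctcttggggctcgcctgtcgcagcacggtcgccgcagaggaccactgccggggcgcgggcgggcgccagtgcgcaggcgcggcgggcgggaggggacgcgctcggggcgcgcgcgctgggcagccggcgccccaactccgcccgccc
Adcy5: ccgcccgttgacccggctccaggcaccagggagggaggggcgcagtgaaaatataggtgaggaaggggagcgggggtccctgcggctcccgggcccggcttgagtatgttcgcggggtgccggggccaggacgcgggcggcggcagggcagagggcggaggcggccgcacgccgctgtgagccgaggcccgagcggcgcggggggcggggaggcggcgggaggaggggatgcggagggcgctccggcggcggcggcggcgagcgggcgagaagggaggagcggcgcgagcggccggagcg
All 3 windows were rich in G and C, at 78.3%, 74.0% and 79.0% for Adcy9, Adcy1 and Adcy5, against a median of 52.7% over the 32851 promoter windows. Windows of genes not past the fold were also above that median. They had 75.0% for Adcy2, 68.7% and 56.0% for Adcy3, and 54.7%, 57.0% and 55.7% for Adcy7. The Adcy9 window held 1 TGACG, whose first base lay 24 bases before the start, and the windows of Adcy1 and Adcy5 held none on either strand. Of the 3 windows of Adcy7, a gene not past the fold, 1 also held a TGACG, on the opposite strand, and another held the AP-1 motif TGACTCA, which 5.20% of all windows had on either strand. A TGACG on either strand was present in 20.8% of all windows. The full element TGACGTCA, which contains that core on both strands and was found in 1.79% of all windows, was in none of the windows of Adcy1, Adcy2, Adcy3, Adcy5, Adcy7 and Adcy9. RefSeq windows for Adcy6 and Adcy8 were not analysed here.

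**Figure D1:**
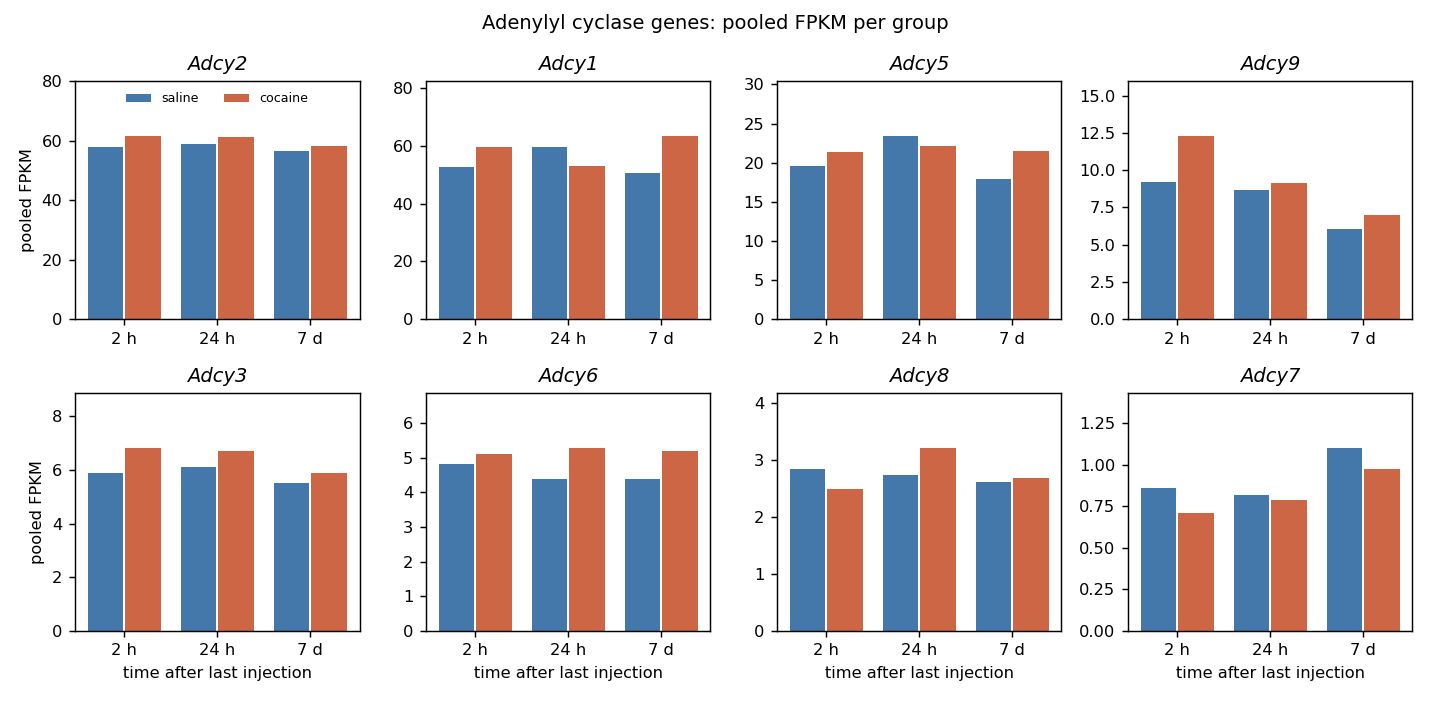
Pooled FPKM (y axis, from 0) of each adenylyl cyclase gene in saline (blue) and cocaine (orange) at 2 h, 24 h and 7 d after the last injection, 1 bar per group and no error bar, since the replicates were pooled. Adcy9 at 2 h stood at 9.17 in saline and 12.3 in cocaine, and Adcy1 at 7 d at 50.7 and 63.4.

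The family spanned levels from 0.710 FPKM (Adcy7 in cocaine at 2 h) to 63.4 FPKM (Adcy1 in cocaine at 7 d). By the median of their 6 pooled values the order was Adcy2 (58.6 FPKM), Adcy1 (56.3), Adcy5 (21.4), Adcy9 (8.87), Adcy3 (6.00), Adcy6 (4.96), Adcy8 (2.71) and Adcy7 (0.836). The values of Adcy2 overlapped those of Adcy1, and the values of Adcy9 overlapped those of Adcy3. The other neighbours in the order did not overlap in any group. The 3 tables were normalized separately by the authors, so levels set across them carry that limit. Outside these 8 genes, Adcy4 lay between 0.657 and 1.04 FPKM and Adcy10, the soluble cyclase, between 0.0644 and 0.343.

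Among the calcium-stimulated isoforms, Adcy1 (chromosome 11, 7063489 to 7178528 of GRCm38 at 2 h and 24 h) was the most abundant. It encodes a neuronal enzyme that couples calcium entry to cAMP and is studied for its part in synaptic plasticity. Its level was 52.7 FPKM under saline against 59.5 under cocaine at 2 h, 59.7 against 53.0 at 24 h and 50.7 against 63.4 at 7 d. Cocaine was thus above saline at 2 h and 7 d and below it at 24 h, with log2 ratios of 0.17, -0.17 and 0.32. At 7 d this was a 1.249-fold difference. The 3 saline pools differed among themselves by 1.18-fold, with the highest at 24 h, and the saline and cocaine values overlapped across the tables. The log2 ratio at 7 d lay 0.49 above that at 24 h, a difference that was not tested.

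Adcy3, best known from the cilia of olfactory neurons and also found in the primary cilia of brain neurons, was present at 5.89 FPKM under saline against 6.84 under cocaine at 2 h, 6.11 against 6.72 at 24 h and 5.53 against 5.87 at 7 d. Cocaine was the higher group at each time point, with log2 ratios of 0.21, 0.14 and 0.09, none past 1.2-fold. Adcy8, the other calmodulin-stimulated enzyme of the forebrain, had 2.83 FPKM under saline against 2.49 under cocaine at 2 h, 2.74 against 3.22 at 24 h and 2.60 against 2.68 at 7 d. Its log2 ratios of -0.18, 0.22 and 0.04 ran opposite to those of Adcy1 at 2 h and 24 h, though neither gene passed 1.2-fold at those times. Summed over the 3 calcium-stimulated genes, the level was 61.5 FPKM under saline against 68.8 under cocaine at 2 h, 68.5 against 63.0 at 24 h and 58.8 against 71.9 at 7 d, a sum that Adcy1 dominated.

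Of the genes for the beta-gamma-stimulated enzymes, the abundant Adcy2 was even across the groups and Adcy7 was near the FPKM minimum. Adcy2 (chromosome 13, 68618697 to 69032781 at 2 h and 24 h) had 57.9 FPKM under saline against 61.6 under cocaine at 2 h, 59.1 against 61.4 at 24 h and 56.7 against 58.2 at 7 d. Its log2 ratios were 0.09, 0.06 and 0.04, and its 3 saline pools differed by 1.04-fold. Adcy7, a low-level isoform in brain that is prominent in blood and immune cells, had 0.856 FPKM under saline against 0.710 under cocaine at 2 h, 0.815 against 0.789 at 24 h and 1.102 against 0.976 at 7 d. It was the 1 gene of the family with cocaine below saline at all 3 time points (log2 -0.24, -0.04 and -0.16), and its mean reached 1 FPKM at 7 d only. At 24 h a second locus of 385 bases just past the gene also carried the name Adcy7, with 1.195 FPKM under saline and 2.06 under cocaine. The summed microglia markers were 136 FPKM under saline against 143 under cocaine at 2 h, 141 against 128 at 24 h and 138 against 139 at 7 d, and their part in the Adcy7 values was not tested.

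Of the calcium-inhibited isoforms, Adcy5 (chromosome 16, 35154877 to 35305737) had 19.5 FPKM under saline against 21.3 under cocaine at 2 h, 23.4 against 22.1 at 24 h and 17.9 against 21.5 at 7 d. The cocaine pools stayed within 1.04-fold of each other, while the saline pools spread 1.31-fold, from the lowest at 7 d to the highest at 24 h. The log2 ratios were 0.13, -0.08 and 0.27, with the 7 d value just past the 1.2-fold limit (1.203-fold). The 1.203-fold difference between saline and cocaine at 7 d was smaller than the 1.31-fold range of the saline pools, which were normalized separately. Since Adcy5 is abundant in the striatum, striatal markers were read beside it. Their sum was 154 FPKM under saline against 161 under cocaine at 2 h, 141 against 147 at 24 h and 144 against 147 at 7 d. The defining markers Drd1a and Drd2 were below 1 FPKM in all 6 groups, with a maximum of 0.925 FPKM for Drd1a and 0.234 for Drd2, and none of the 11 striatal markers found was at 0. The sum rests mostly on Penk and Ppp1r1b, and single markers went both ways: cocaine was below saline for 6 of 11 at 2 h, 3 of 11 at 24 h and 7 of 11 at 7 d. Past the fold were Adora2a at 2 h (log2 0.38) and 7 d (0.68), higher, and Rgs9 at 2 h (-0.42) and 7 d (-0.37) and Tac1 at 7 d (-0.62), lower. Their part in the Adcy5 values was not tested.

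Adcy6, the close relative of Adcy5 with wide expression, had 4.82 FPKM under saline against 5.09 under cocaine at 2 h, 4.40 against 5.29 at 24 h and 4.38 against 5.19 at 7 d. Its log2 ratios were 0.08, 0.26 and 0.24, and the 24 h value fell just short of the limit (1.199-fold). Adcy6 was the 1 gene among the 7 with a mean of at least 1 FPKM in every table whose 3 cocaine values all lay above its 3 saline values. Over all genes, 3.44% had this arrangement and 4.51% had the opposite one. The arrangement sets values across time points that were normalized separately, and its closest values were those at 2 h (4.82 and 5.09 FPKM). With the length trend subtracted, the log2 ratios of Adcy6 were 0.02, 0.25 and 0.15.

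Adcy9 (chromosome 16, 4284896 to 4453392 at 2 h and 24 h, 4284889 to 4420503 at 7 d) showed the largest ratio of the family. Its level was 9.17 FPKM under saline against 12.3 under cocaine at 2 h, 8.63 against 9.11 at 24 h and 6.04 against 6.96 at 7 d. Cocaine was above saline each time, 1.34-fold at 2 h, with log2 ratios of 0.42, 0.08 and 0.20. At 2 h, 4.43% of all genes had a ratio as high or higher. That share belongs to the value picked as the family's largest over 3 time points, so it is no test. The saline pools, normalized separately, differed by 1.52-fold, more than the 1.34-fold difference between saline and cocaine at 2 h. The lowest was at 7 d, where the authors' table also gives the locus another extent. A second locus with the same interval and name lies in the run of loci on the opposite strand. It had 7.59 FPKM under saline against 6.76 under cocaine at 2 h (log2 -0.17), 5.86 against 5.26 at 24 h (-0.15) and 6.81 against 7.86 at 7 d (0.20). The library kit named in the methods does not mark strand, so reads of the 2 loci cannot be told apart by strand, and the sum of both gave a log2 ratio of 0.18 at 2 h, within the 1.2-fold limit. Red blood cell markers were also higher in cocaine at 2 h, with 3 of 3 past 1.2-fold and a sum of 189 FPKM in saline against 289 in cocaine. Their sum was 253 FPKM against 277 at 24 h and 266 against 308 at 7 d. At 2 h the summed astrocyte and endothelial markers were also higher in cocaine, and the interneuron, oligodendrocyte and choroid plexus sums were lower. The part of these cells in the Adcy9 value was not tested.

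Read from the locus on its annotated strand, the pattern of Adcy9 over the 3 time points was most like those of the locus that names Med12,Nlgn3 (log2 0.43, 0.07 and 0.20), of Tmem132e (0.44, 0.05 and 0.21) and of Wipf2 (0.38, 0.09 and 0.21). They were the nearest of 12840 genes by Euclidean distance over the 3 log2 ratios, at 0.018, 0.040 and 0.043. The nearest genes were not sought for the opposite-strand locus or for the sum, whose ratios differ.

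**Figure D2:**
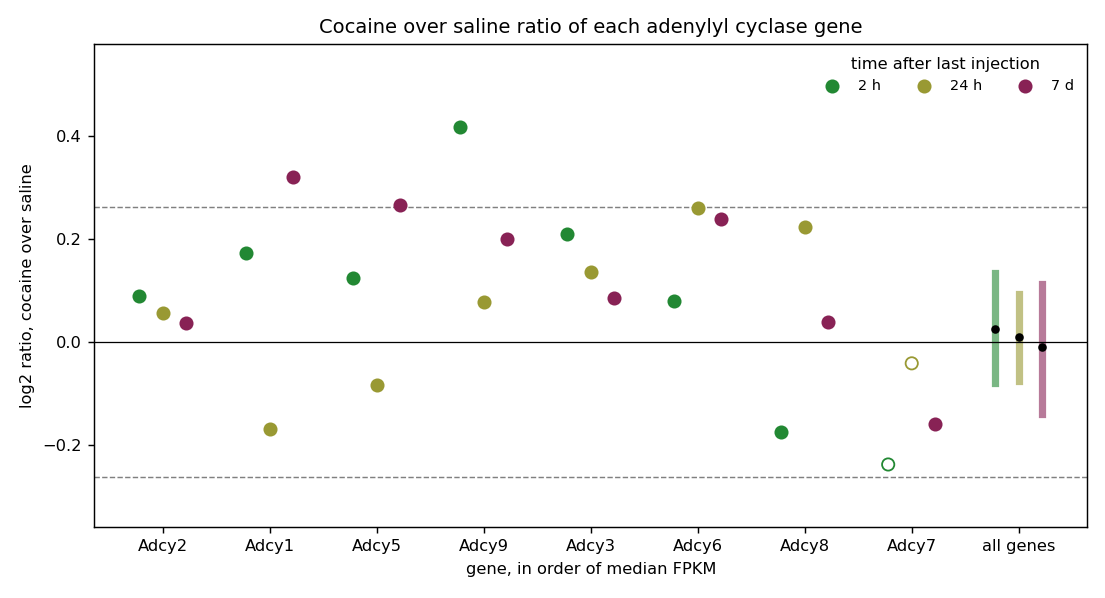
Log2 ratio of cocaine over saline (y axis) for each gene at 2 h, 24 h and 7 d. Open points mark a mean under 1 FPKM, dashed lines mark 1.2-fold either way, and the bars at the right span the middle 50% of all genes with black dots at their medians. Adcy9 at 2 h (0.42), Adcy1 at 7 d (0.32) and Adcy5 at 7 d (0.27) lie above the upper line, and no point lies below the lower one.

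Counted together, 7 of the 8 genes passed the FPKM minimum at 2 h, 7 at 24 h and 8 at 7 d. At 2 h 1 of 7 was higher in cocaine, where 10.5% of all genes were, and 0 were lower, where 7.14% of all genes were. At 24 h 0 of 7 were past the fold in either direction, against 6.08% higher and 5.5% lower over all genes. At 7 d 2 of 8 were higher and 0 lower, against 8.14% and 11.8% over all genes. The share of 14.3% at 2 h rests on 1 gene and the share at 7 d on 2, and no difference from other genes was tested. The median log2 ratio of the family was 0.13, 0.08 and 0.14 at 2 h, 24 h and 7 d, and that of all genes was 0.02, 0.01 and -0.01. With the length trend described below subtracted, the family medians were 0.05, 0.07 and 0.07. Summed over the 8 genes, the level was 154 FPKM under saline against 170 under cocaine at 2 h, 165 against 162 at 24 h and 145 against 165 at 7 d. Adcy9, Adcy1 and Adcy5 thus carried the values past the fold, and the family sum was highest in cocaine at 2 h and lowest in saline at 7 d.

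Markers of the cell types of the tissue were read beside these values. Of the cortical excitatory markers, Slc17a7 lay between 466 and 532 FPKM over the 6 groups, Tbr1 between 27.6 and 33.5 and Neurod6 between 28.1 and 42.4, with Neurod6 lower in cocaine at 7 d (log2 -0.41). Astrocyte markers were higher in cocaine for 5 of 5 genes at 2 h (sum 319 FPKM in saline and 351 in cocaine), lower for 5 of 5 at 24 h (367 and 327) and higher for 5 of 5 at 7 d (313 and 351). This order of signs, also that of Adcy1 and Adcy5, was not particular to astrocytes. The median log2 ratios at 2 h, 24 h and 7 d were 0.08, -0.13 and 0.01 for microglia markers. They were 0.07, -0.21 and 0.25 for oligodendrocyte precursor markers and 0.13, -0.04 and 0.16 for endothelial ones. The medians of the other lists did not have this order. Oligodendrocyte markers were lower in cocaine for 6 of 6 genes at 24 h (803 and 669 FPKM), and both oligodendrocyte precursor markers were lower at 24 h (10.5 and 8.65 FPKM) and higher at 7 d (9.25 and 11.2 FPKM). The cocaine over saline ratio of the summed interneuron markers lay between 0.920 and 0.984, a sum in which Sst was the largest value. Single interneuron markers went both ways, with cocaine above saline for 3 of 6 at 2 h, 4 of 6 at 24 h and 2 of 6 at 7 d. Their median log2 ratio at 7 d was -0.05, and 0.03 with the length trend subtracted. The choroid plexus ratio, 0.785 at 2 h and 0.888 at 24 h, reached 2.785 at 7 d, with sums under 10 FPKM. The choroid plexus sum followed Ttr, at 0.284 FPKM in saline and 6.54 in cocaine at 7 d, while 4 of its 5 markers were above saline at 2 h and 2 of 5, Folr1 and Clic6, below it at 7 d. Endothelial markers summed to 121 FPKM under saline against 137 under cocaine at 2 h, 137 against 138 at 24 h and 124 against 132 at 7 d. No marker of any list was at 0 in any group. The part of these cells in the values of Adcy1 and Adcy5 was not tested.

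Transcript length moved with the ratios as well. The 8 genes have long transcripts, from 4211 nt for Adcy2 to 12259 nt for Adcy1. At 7 d the median log2 ratio of all genes went from -0.23 in the shortest of 20 groups by length to 0.14 in the longest, and the corresponding medians for genes of like length were 0.14 for Adcy1 and 0.13 for Adcy5. Taking this trend out left log2 ratios of 0.18 for Adcy1 and 0.14 for Adcy5, both within the 1.2-fold limit, so that neither remained past it. The 2 h value of Adcy9 was 0.35 after the same step and stayed past the limit.

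**Figure D3:**
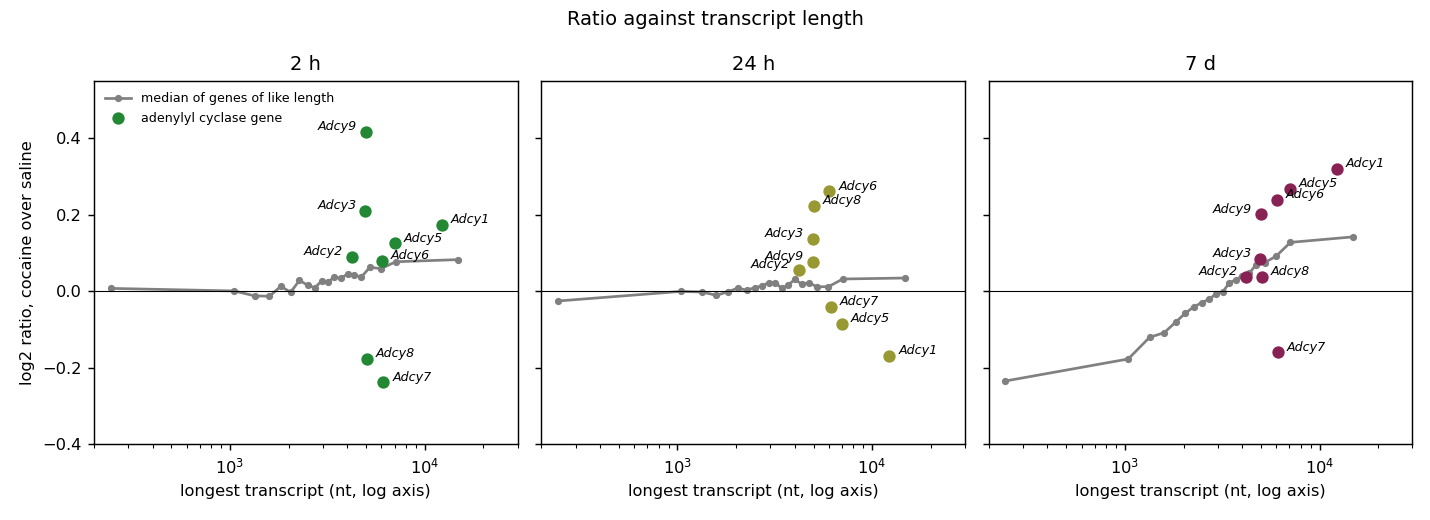
Log2 ratio of cocaine over saline (y axis) against the length of the longest annotated transcript (x axis, log scale) at 2 h, 24 h and 7 d. Grey points are medians of 20 groups of genes by length and coloured points the 8 adenylyl cyclase genes. At 7 d the grey line climbs from -0.23 to 0.14, and Adcy1 (0.32) and Adcy5 (0.27) lie above it while Adcy7 (-0.16) lies below it.

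Of 57 other genes in 12 lists, from G proteins to CREB coactivators and with the guanylyl cyclases, 52, 52 and 53 passed the FPKM minimum at 2 h, 24 h and 7 d. In cocaine 2 were higher and 1 lower at 2 h, 0 higher and 1 lower at 24 h, and 5 higher and 0 lower at 7 d. These are shares of 3.85% and 1.92%, 0% and 1.92%, and 9.43% and 0%, below the background shares given above except for the genes higher at 7 d. Among the G protein subunits that act directly on the cyclases, none of those read passed 1.2-fold. These were 2 of 2 Gs-type genes and 6 of 7 beta and gamma genes in each table, and 4 of 5 Gi/o-type genes at 2 h and 24 h and 5 of 5 at 7 d. The 2 Gs-type genes, Gnas and Gnal, stayed between log2 -0.07 and 0.08, and the PKA catalytic genes Prkaca and Prkacb between -0.05 and 0.13.

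The pathway genes past the fold were in the lists of PKA anchoring proteins, Rap exchange factors, and the CREB family with its coactivators. Whether they were concentrated there was not tested. With the length trend subtracted, 1 was higher and 1 lower at 2 h, 1 lower at 24 h and 1 higher at 7 d. Ep300, a histone acetyltransferase that acts as a CREB coactivator, was the 1 pathway gene past the fold at more than 1 time point, with 5.28 FPKM under saline against 6.43 under cocaine at 2 h (log2 0.28), and 3.90 and 4.91 at 7 d (0.32). The 7 d cocaine value of Ep300 lay below its saline values at 2 h and at 24 h (5.54 FPKM), which were normalized separately. Rapgef3 (Epac1) had 6.22 FPKM under saline against 7.79 under cocaine at 2 h (log2 0.32) and was within the limit at 24 h (0.22) and 7 d (0.20). Rapgef4 (Epac2), the abundant brain form, had 176 FPKM under saline against 144 under cocaine at 24 h (log2 -0.29), with 0.04 at 2 h and 0.15 at 7 d. The saline values of Rapgef4 at 2 h and 7 d, normalized separately, were lower, at 136 and 154 FPKM. The anchoring protein gene Akap8 was lower in cocaine at 2 h (8.13 and 6.70 FPKM, log2 -0.28).

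At 7 d the highest ratios were those of Crtc3, a CREB coactivator regulated by cAMP (1.46 FPKM in saline and 1.99 in cocaine, log2 0.42), and of Akap9 (4.77 and 6.04 FPKM, 0.33). The 7 d cocaine value of Crtc3 lay below its saline values of 2.04 FPKM at 2 h and 2.01 at 24 h, which were normalized separately. Akap12 (log2 0.31) and Crtc1 (0.27), singled out after their values were seen, completed the 5 genes higher at 7 d. The lowest ratios at 7 d belonged to Calm2, a calmodulin gene (1880 and 1638 FPKM, log2 -0.20), and Prkar2b, a PKA regulatory subunit (22.1 and 20.03 FPKM, -0.14), both within the limit. With the length trend subtracted, Calm2 stood at -0.02 and Prkar2b at -0.16. Other values at the ends of the order, also within the limit, were those of Atf1, a CREB relative, at 2 h (log2 -0.23), of Crem, another one, at 24 h (-0.22) and of Pkib, an inhibitor of PKA, at 24 h (0.18). In the list of the CREB family and its coactivators, 3 of 8 genes were higher at 7 d and 0 lower, against 8.14% and 11.8% of all genes, with a median log2 ratio of 0.15 against -0.01 over all genes. With the length trend subtracted 1 of the 8, Crtc3, was past the fold (log2 0.35). The PKA anchoring proteins had 2 of 9 genes higher at 7 d and 0 lower, with a median of 0.05, and 0 of 9 past the fold once the length trend was subtracted. The same step left Rapgef3 (0.29) and Akap8 (-0.31) past the fold at 2 h and Rapgef4 (-0.31) at 24 h, but not Ep300 (0.20 at 2 h and 0.18 at 7 d). The guanylyl cyclase genes, a sister family that makes cyclic GMP, had no value past the fold at any time point among those with a mean of at least 1 FPKM.

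**Figure D4:**
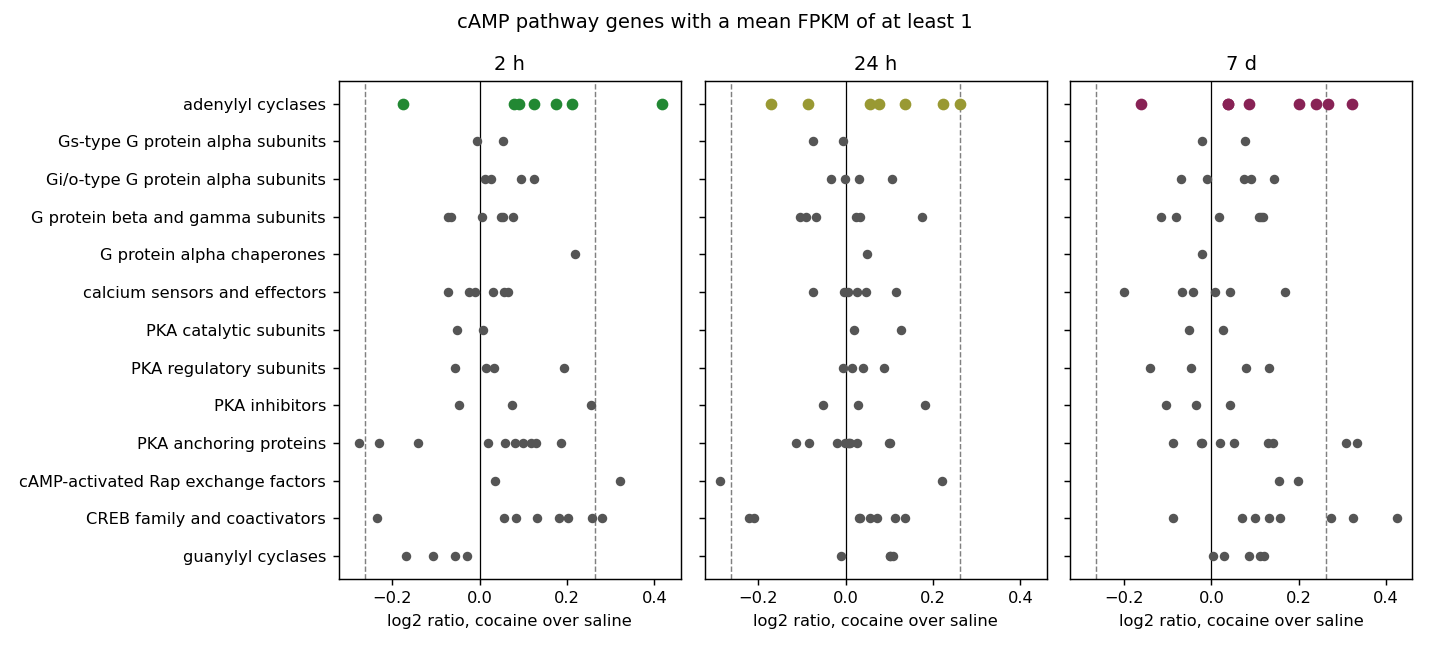
Log2 ratio of cocaine over saline (x axis) for the adenylyl cyclases (top row, coloured) and 12 lists of cAMP pathway and guanylyl cyclase genes (grey), 1 point per gene with a mean of at least 1 FPKM, at 2 h, 24 h and 7 d. Dashed lines mark 1.2-fold. The adenylyl cyclases reach 0.42 at 2 h, the G protein subunits read stay inside the lines, and Crtc3 (0.42) and Akap9 (0.33) lie farthest to the right at 7 d.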

How the data were processed

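RNA of 12 libraries (2 per group, 5 mice each) was sequenced on an Illumina HiSeq2000. The submitters' processing notes name Trimmomatic 0.32, TopHat2 2.0.12 and Cufflinks 2.2.1 with Cuffdiff. The methods describe poly(A) libraries and uniquely mapped reads. Per the file headers, the authors deposited 1 table per time point from Cuffdiff, with 1 pooled FPKM per group and locus. The tables give neither read counts nor replicate spread. The authors' fold changes, test statistics, p and q values were not used. The FPKM columns are headed by time alone for cocaine and by C_ and time for saline, although the sample labels use C for cocaine, and the assignment follows the headings of the study's supplementary tables, where nearly all listed genes have close values in the same order. The methods name mm9 and the submitters' notes GRCm38. The deposited positions were checked: 99.89%, 99.85% and 99.87% of genes with a mean of at least 1 FPKM overlapped their GRCm38 position, against 15.64%, 15.62% and 15.68% for NCBIM37. Starts were made 1-based.

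Ratios were computed in Python 3.11.15 with pandas 2.3.3 and numpy 2.4.6, and plotted with matplotlib 3.10.9. The longest locus gave each gene's value. Ties went to the annotated strand, a rule chosen after the Adcy9 loci were seen, with strand read from the order of the loci (99.15%, 98.93% and 98.91% as annotated). Loci naming several genes were kept as 1 entry and gave no single gene a value. Transcript lengths, from GENCODE by symbol, were found for 82.8%, 82.1% and 82.2% of genes with a mean of at least 1 FPKM. Steps were tested on simulated data. A marker gene of the cortical list is not reported here. The genes and lists were chosen with earlier results of these data known. Named were the 8 cyclases, pathway genes past 1.2-fold at 2 or more time points, the 2 highest and 2 lowest pathway genes per time point, and the 3 genes nearest to the cyclase with the largest ratio. Alternatives covered the pseudocount, locus, scaling, fold and FPKM minimum.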

Additional observations from a re-analysis of the deposited data

How the results depend on the processing

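Counts of adenylyl cyclase genes past the fold depended on the settings. With a fold of 1.1, 3 genes were higher and 1 lower at 2 h, while 24 h had 2 higher and 1 lower, and 7 d had 4 higher and 1 lower, and with a fold of 1.5 the counts at 2 h and 7 d were 0. The shares of all genes past a fold of 1.1 or 1.5 were not computed. These counts therefore say nothing about the family against other genes. With a pseudocount of 1 the 7 d count was 1. With no pseudocount Adcy6 brought the 24 h count to 1, and with the locus of the highest mean FPKM, or the sum over loci, the short Adcy7 locus did so. With the sum over loci the 2 h count was 0. Subtracting the length-group medians gave a 7 d count of 0. With the Adcy9 locus of the opposite strand, an alternative chosen after seeing the data, the 2 h count was 0 and the log2 ratio of Adcy9 at 2 h was -0.17. Centring on the median of all genes, no FPKM minimum and a minimum of 5 FPKM left every count as it was, and subtracting the length-group medians lowered the family's median log2 ratio at 2 h (0.13 before, 0.05 after) and at 7 d (0.14 before, 0.07 after). No paired analysis was possible because each table gives 1 pooled value per group, and leaving out a replicate could not be run for the same reason. The tables give neither replicate error nor the reads behind a value, so small ratios cannot be told from noise.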
